A study of Rattus norvegicus with 8 samples.

Results

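The genes described here encode enzymes of drug and xenobiotic metabolism in rat liver: cytochromes P450 of families 1, 2 and 3, UDP-glucuronosyltransferases (UGT), glutathione S-transferases (GST), sulfotransferases (SULT), flavin-containing monooxygenases (FMO) and aldehyde dehydrogenases (ALDH). They were chosen by name, as all genes whose symbol begins with Cyp1, Cyp2, Cyp3, Ugt, Gst, Sult, Fmo or Aldh, without Cyp2c11, Cyp2c12, Cyp3a2, Cyp3a18, Ugt2b and Sult2a2. Of 106 such genes with a probe, 93 were measured, among 9982 named genes and 24143 features measured in all. A gene was measured if its brightest probe was well above background in either colour on at least 4 of 8 arrays. The 93 were 28 P450s, 9 UGTs, 17 GSTs, 10 SULTs, 5 FMOs, 14 ALDHs and 10 genes that only share the first letters (Cyp11b2, Cyp11b3, Cyp17a1, Cyp20a1, Cyp26a1, Cyp26b1, Cyp27a1, Cyp27b1, Cyp39a1 and Fmod). Most of those 10 act mainly on steroids, vitamins or bile acids, and Fmod is no such enzyme (it encodes the matrix protein fibromodulin). The 10 are kept apart from the families in the counts by family.

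The 13 genes that did not pass the background filter were Cyp11a1, Cyp11b1, Cyp19a1, Cyp1b1, Cyp21a1, Cyp24a1, Cyp2a3, Cyp2g1, Gstm6l, Gstt4, Sult1d1, Ugt2a1 and Ugt8. Of the 93 measured genes, 83 were well above background on 4 of 4 arrays in all 4 groups. In 7 genes at least 1 group had no array well above background.

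Liver RNA came from male Zucker diabetic fatty (ZDF) rats aged 12 weeks, obese (fa/fa, homozygous for the leptin receptor mutation) or lean (fa/+, heterozygous, so that the lean rats carry 1 copy of the same allele). Rats received testosterone undecanoate (TU, a long-acting testosterone ester) at 20 mg/kg under the skin for 4 weeks, with injections 3 days apart in the first 2 weeks and once a week in the last 2, or vehicle. There were 4 arrays of obese and 4 of lean rats, and each array compared a TU liver, labelled with the red dye Cy5, with a vehicle liver of the same genotype, labelled with the green dye Cy3. The arrays are given as biological replicates. The labels do not say whether an RNA sample stands for 1 rat or a pool, so that p-values measure the spread between these arrays.

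Drug metabolism runs in stages. P450s and FMOs first oxidise a compound and ALDHs oxidise aldehydes to acids. UGTs, SULTs and GSTs then join glucuronic acid, sulfate or glutathione to it, which makes it easier to excrete, and the same enzymes handle steroids, bile acids and fatty acids made by the body. In rat liver many of these genes are known to differ between males and females and to follow sex hormones and growth hormone, and others are switched on by the nuclear receptors CAR (Nr1i3) and PXR (Nr1i2) or by the aryl hydrocarbon receptor (Ahr).

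Several properties of the arrays bear on every value below. All lean arrays lay on 1 slide and all obese arrays on another, scanned separately, so that genotype, slide and scan cannot be told apart. No array had its dyes exchanged, so that the dye and TU cannot be told apart either. Between 50.5% and 60.6% of probes per array were well above background in Cy5 and 58.5% to 69.1% in Cy3. On obese replicate 1, 240 of 23868 features (1.01%) lay at least 2 log2 units below every other obese array in both colours. They included Gstk1, Cyp2j4, Aldh1l1 and Cyp2c13. Aldh1l1, for example, had a log2 signal of 8.63 with TU and 8.75 with vehicle there, against 15.05, 15.40 and 15.22 with TU and 15.84, 15.41 and 14.74 with vehicle on the other obese arrays. Obese replicate 2 had the widest spread of log2 ratios (SD 0.462, against 0.107 to 0.254 on the other arrays). All 8 hepatocyte markers examined were well above background in both colours on all 8 arrays. In whole liver, fewer cells of a type and less RNA per cell cannot be told apart.

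The obese livers were compared with the lean livers first. Here a difference with TU sets obese TU livers against lean TU livers. A difference with vehicle sets obese vehicle livers against lean vehicle livers. A gene that fell was lower in obese than in lean livers. In this comparison 30 of the 93 genes passed the test with vehicle (18 higher and 12 lower in obese) and 29 with TU (15 higher and 14 lower). Here and below, a gene passed at a Benjamini-Hochberg adjusted p under 0.05 over all features by limma, a linear model with a spread shared across genes. These were 32.3% and 31.2% of the genes. Among all features tested, the share called was 15.5% with vehicle (8.51% higher and 7.03% lower) and 21.8% with TU (13.2% higher and 8.59% lower). The median log2 difference of the 93 genes was 0.057 with vehicle and -0.0028 with TU, against 0.0152 and 0.0233 over all features. The 2 comparisons use the same spots on the same arrays and are not independent. With that limit, 21 genes passed in both colours with the same direction, 13 higher and 8 lower, which was 70% of the vehicle calls and 72.4% of the TU calls. None passed in opposite directions. These counts include 3 genes whose calls carry no weight: Sult4a1 and Ugt2b7 passed the background filter only through the genotype in which they are high, so that a difference was built in, and Cyp2b12 had a value on 1 obese array. Without these 3, 27 of 90 genes (30%) passed with TU (14 higher, 13 lower) and 27 with vehicle (17 higher, 10 lower), and 19 in both colours with the same direction (12 higher, 7 lower). None of the calls of the 93 genes remained, in either colour, without the step that brings the signal distributions of the arrays together, and 10 of the 90 genes passed in both colours whichever single array was left out: Aldh2, Aldh3b1, Aldh6a1, Cyp17a1, Cyp2b15, Fmo5, Gsto1, Sult1c2a, Sult1c3 and Sult2a6.

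**Figure D1:**
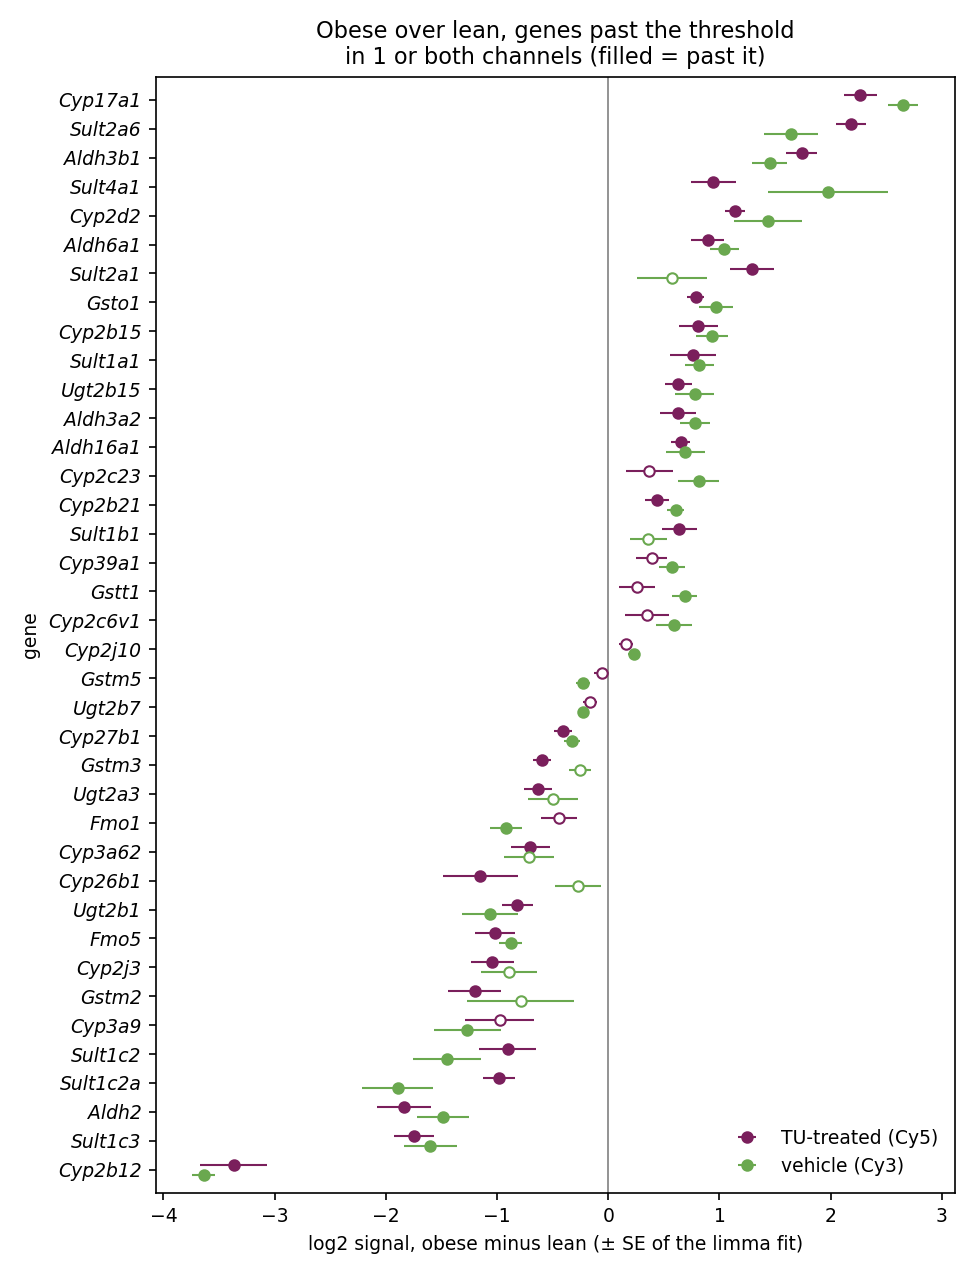
Log2 signal of obese minus lean livers (horizontal axis, with the SE of the limma fit as bars) for the 38 genes called in 1 or both colours, 1 gene per line, ordered by the sum of both differences; filled points passed the test, which carries no weight for Sult4a1, Ugt2b7 and Cyp2b12. Sult2a6 lay at 2.18 with TU and 1.64 with vehicle, and Sult1c3 at -1.75 and -1.60.

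Of the 6 families, the sulfotransferases held the largest share of called genes, 8 of 10 with TU (5 higher, 3 lower) and 6 of 10 with vehicle (3 higher, 3 lower), or 7 of 9 and 5 of 9 without Sult4a1. Among all features the share was 21.8% with TU and 15.5% with vehicle. The hydroxysteroid sulfotransferase Sult2a6 and the phenol sulfotransferase Sult1a1 were higher in obese livers in both colours, while the 3 members of the Sult1c group, Sult1c2, Sult1c2a and Sult1c3, were lower in both. The 3 Sult1c genes neighbour each other on chromosome 9. Of 19 groups of neighbouring genes, which held 66 of the 93, 3 groups had at least 2 genes called in both colours. In the Sult1c group all of these went one way, and in the group with the Cyp2b genes all but Cyp2b12 did.

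The promoters of the Sult1c genes are shown because they neighbour each other and were lower together, with those of Sult2a6 and Cyp2b12, which had the largest increase and the largest decrease, averaged over both colours, among the genes called in both and matched to a promoter; the Cyp2b12 decrease rests on 1 obese array. Each run covers 250 bases before to 50 bases after the gene's start, 5′ to 3′ on the gene's strand, from RefSeq (GRCr8). Sult1c2 lies at chr9:7436731-7437030 (plus strand), Sult1c2a at chr9:7103153-7103452 (minus strand), Sult1c3 at chr9:7594207-7594506 (minus strand), Sult2a6 at chr1:84097759-84098058 (minus strand) and Cyp2b12 at chr1:91135044-91135343 (plus strand). Capitals mark matches, on either strand, to TGTTCT (a steroid receptor half-site), GTTAAT (an HNF1 half-site) and AGGTCA (a nuclear receptor half-site).
Sult1c2: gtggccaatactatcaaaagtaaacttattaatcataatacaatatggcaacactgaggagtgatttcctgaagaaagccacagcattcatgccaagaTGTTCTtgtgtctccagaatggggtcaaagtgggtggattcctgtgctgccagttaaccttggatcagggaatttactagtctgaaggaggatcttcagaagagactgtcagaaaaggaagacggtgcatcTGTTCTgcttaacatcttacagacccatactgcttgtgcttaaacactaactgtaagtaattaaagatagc
Sult1c2a: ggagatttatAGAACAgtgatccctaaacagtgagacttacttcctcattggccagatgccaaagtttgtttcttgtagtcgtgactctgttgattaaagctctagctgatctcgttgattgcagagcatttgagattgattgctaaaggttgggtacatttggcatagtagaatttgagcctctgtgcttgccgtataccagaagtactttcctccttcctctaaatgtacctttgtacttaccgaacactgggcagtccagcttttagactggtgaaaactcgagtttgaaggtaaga
Sult1c3: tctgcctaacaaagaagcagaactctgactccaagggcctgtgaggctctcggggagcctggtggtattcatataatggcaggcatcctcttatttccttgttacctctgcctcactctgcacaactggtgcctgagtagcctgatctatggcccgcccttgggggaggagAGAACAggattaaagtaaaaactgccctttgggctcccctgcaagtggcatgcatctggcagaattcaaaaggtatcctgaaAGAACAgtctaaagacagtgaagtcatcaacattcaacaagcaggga
Sult2a6: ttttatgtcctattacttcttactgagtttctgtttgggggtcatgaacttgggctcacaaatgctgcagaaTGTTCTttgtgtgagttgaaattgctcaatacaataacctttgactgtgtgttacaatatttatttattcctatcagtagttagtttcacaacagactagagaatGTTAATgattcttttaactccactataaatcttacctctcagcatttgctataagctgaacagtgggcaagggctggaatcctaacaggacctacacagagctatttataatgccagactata
Cyp2b12: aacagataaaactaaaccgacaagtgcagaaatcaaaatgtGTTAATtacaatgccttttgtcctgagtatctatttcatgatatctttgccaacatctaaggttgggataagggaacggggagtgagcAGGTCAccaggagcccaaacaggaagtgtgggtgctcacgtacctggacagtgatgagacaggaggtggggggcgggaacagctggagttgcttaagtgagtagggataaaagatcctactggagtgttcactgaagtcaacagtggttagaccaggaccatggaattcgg

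A promoter was at hand for 79 of the 93 genes. TGTTCT, or AGAACA on the other strand, occurred 2 times in the Sult1c2 promoter, 1 time in that of Sult1c2a, 2 times in that of Sult1c3 and 1 time in that of Sult2a6, and was not found in that of Cyp2b12. It was present in 6 of 11 promoters of genes higher in both colours (54.5%) and in 4 of 7 promoters of genes lower in both (57.1%), against 29.1% of the promoters of the 79 genes and 20.7% of all 33469 promoters of this length. Of the 5 motifs searched it had the highest share among the genes higher in both and among those lower in both. The 79 genes entered with 1 promoter each, while the 33469 were not limited to 1 per gene or to measured genes. AGGTCA was present in 36.4% of the promoters of genes higher in both and 28.6% of those lower in both, against 26.6% of the 79 and 16.2% of all promoters. GTTAAT was present in 18.2% and 14.3%, against 11.4% and 7.45%. The xenobiotic response core GCGTG was present in 9.09% and 14.3%, against 25.3% and 29.7%. The antioxidant response core TGACNNNGC was present in 9.09% and 0%, against 13.9% and 12.1%. Neither core was in the 5 promoters shown. With 11 and 7 promoters, 1 promoter makes up 9.09% and 14.3% of a set. The lower set includes Cyp2b12, whose call carries no weight, and the higher set was taken without setting Sult4a1 aside. A match of this kind is a description of the letters and not a binding site.

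Sult2a6, which sulfates hydroxysteroids such as bile acids and dehydroepiandrosterone, had log2 signals of 14.87, 14.65, 15.10 and 14.70 in the 4 obese TU livers, against 12.91, 12.63, 12.65 and 12.40 in the 4 lean TU livers. With vehicle its signals were 14.06, 13.73, 13.86 and 14.43 in obese livers, against 11.73, 12.62, 12.75 and 12.39 in lean livers. All obese livers lay above all lean livers in both colours. The difference was 2.18 ± 0.13 with TU (log2 ± SE, 4.54-fold, limma adjusted p = 0.000136) and 1.64 ± 0.25 with vehicle (3.12-fold, limma adjusted p = 0.00583). Its neighbour Sult2a1, the better known enzyme of the same kind, had 13.92, 14.39, 14.80 and 14.04 in obese TU livers and 12.90, 12.87, 13.32 and 12.89 in lean TU livers, a difference of 1.29 ± 0.20 (limma adjusted p = 0.00398). With vehicle the Sult2a1 groups overlapped, at 13.37, 13.24, 14.30 and 14.66 in obese and 13.40, 13.40, 13.28 and 13.21 in lean livers (difference 0.57 ± 0.31, limma adjusted p = 0.256).

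Sult1c3 had log2 signals of 12.21, 12.55, 12.98 and 12.34 in obese TU livers, against 14.53, 14.12, 14.34 and 14.08 in lean TU livers. With vehicle the values were 12.74, 12.06, 13.23 and 12.47 in obese and 14.50, 14.09, 14.03 and 14.29 in lean livers. Obese livers lay below lean livers without overlap in both colours. Sult1c3 fell by 1.75 ± 0.18 with TU and by 1.60 ± 0.24 with vehicle (limma adjusted p = 0.000773 and 0.00602). Sult1c2a, with a value on 3 obese arrays, fell by 0.98 ± 0.14 with TU and by 1.89 ± 0.32 with vehicle (limma adjusted p = 0.00423 and 0.0126). A second, dimmer probe of Sult1c2a gave -3.61 with TU and -4.11 with vehicle. Sult1c2 fell by 0.90 ± 0.25 with TU, where the groups overlapped (8.71, 9.14, 9.66 and 8.58 in obese and 10.31, 10.05, 9.60 and 9.74 in lean livers), and by 1.45 ± 0.31 with vehicle, where they did not (limma adjusted p = 0.039 and 0.0208). By its brightest probe the Sult1c2 call was the weaker one: without lean replicate 1 its limma adjusted p was 0.102 with TU, and without lean replicate 3 it was 0.0662 with vehicle. A second probe of Sult1c2 gave -0.76 with TU and -0.90 with vehicle and passed in both colours (limma adjusted p = 0.00943 and 0.0106).

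**Figure D2:**
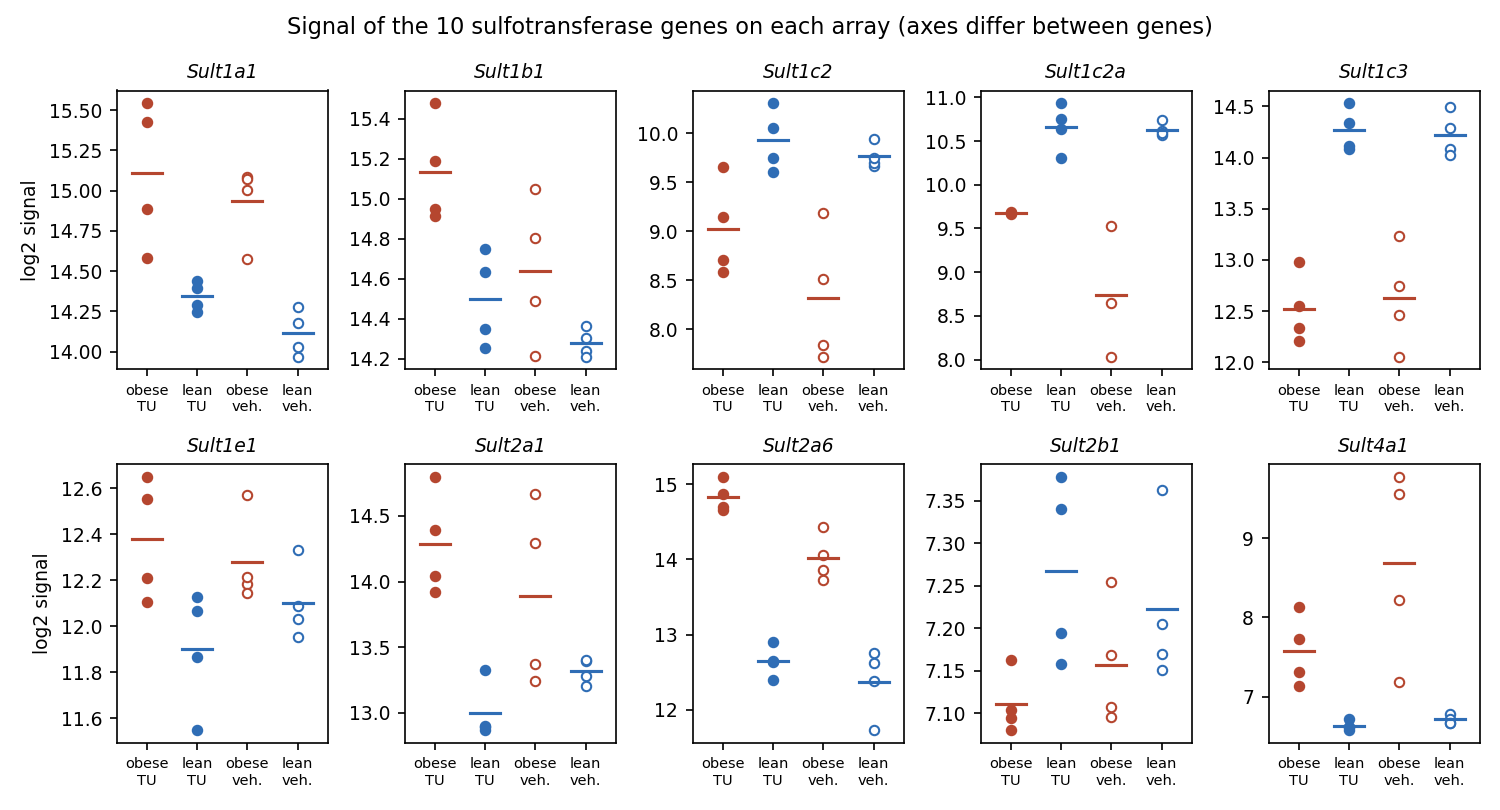
Log2 signal of the 10 sulfotransferase genes (vertical axes, which differ between genes) in obese TU, lean TU, obese vehicle and lean vehicle livers; each point is 1 array and each line the mean. Sult2a6 points of obese livers all lie above those of lean livers and Sult1c3 points all lie below.

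Among the remaining sulfotransferases, Sult1a1, which sulfates phenols, was higher in obese livers by 0.76 ± 0.21 with TU and 0.82 ± 0.13 with vehicle (limma adjusted p = 0.033 and 0.00716). The call with TU was lost when any 1 of 6 arrays was left out, with a limma adjusted p of up to 0.0827 (without lean replicate 3). Sult1b1, which sulfates thyroid hormones, was higher with TU by 0.64 ± 0.16 (limma adjusted p = 0.0246, and 0.0716 without lean replicate 4). With vehicle the Sult1b1 difference was 0.36 ± 0.17 and did not pass (limma adjusted p = 0.191). A second probe of Sult1b1 gave 0.30 with TU and -0.11 with vehicle and did not pass in either colour. Sult4a1, best known from the brain, was not well above background on any lean TU array. It had 7.73, 7.31, 7.13 and 8.13 in obese TU livers, which put it at least 1.91-fold above the lean TU livers, whose measured signals were 6.58, 6.61, 6.72 and 6.62. It passed the background filter through the obese arrays, so that this is a description with no test. The estrogen sulfotransferase Sult1e1 (0.48 ± 0.17 with TU and 0.18 ± 0.12 with vehicle) did not pass in either colour, nor did Sult2b1 (-0.16 ± 0.065 and -0.07 ± 0.066).

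Of the 28 P450s, 6 passed with TU (3 higher, 3 lower), which at 21.4% was no more than the 21.8% of all features, and 8 with vehicle (6 higher, 2 lower), 28.6% against 15.5%. Without Cyp2b12 these were 5 (18.5%) and 7 (25.9%) of 27. Cyp2d2, which oxidises many basic drugs, Cyp2b15 and Cyp2b21 were higher in obese livers in both colours. Cyp2d2 had 13.42, 13.19, 13.26 and 13.43 in obese TU livers, against 12.31, 12.23, 11.99 and 12.20 in lean TU livers, with no overlap (1.14 ± 0.089, 2.21-fold, limma adjusted p = 0.000349). With vehicle it had 13.35, 14.71, 13.30 and 13.42 in obese and 12.36, 12.16, 12.13 and 12.38 in lean livers, again without overlap, with obese replicate 2 far above the rest (1.44 ± 0.31, limma adjusted p = 0.0217, and 0.0672 without lean replicate 3).

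Cyp2b12, known from rat sebaceous glands, could be read on 1 obese array only, replicate 1, where it had 7.52 with TU and 7.37 with vehicle, because its spot was marked non-uniform on the others. In lean livers it had 10.57, 10.68, 11.01 and 11.30 with TU and 10.94, 10.98, 11.11 and 10.98 with vehicle. The difference is that of 1 obese array, the one with the low spots described above, and is given with no test. Of its neighbours on chromosome 1, Cyp2b15 was higher by 0.81 ± 0.18 with TU and 0.93 ± 0.15 with vehicle (limma adjusted p = 0.0152 and 0.00703), and Cyp2b21 by 0.44 ± 0.11 and 0.61 ± 0.078 (limma adjusted p = 0.0254 and 0.00324). Without lean replicate 1 the Cyp2b21 call with TU was lost (limma adjusted p = 0.0702).

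The epoxygenase Cyp2j3, which acts on arachidonic acid, was lower in obese than in lean TU livers by 1.04 ± 0.19 (limma adjusted p = 0.00786). Its signals were 11.71, 11.26, 11.48 and 11.91 in obese and 13.06, 12.59, 12.27 and 12.60 in lean TU livers. A second probe of Cyp2j3 gave a smaller fall, -0.42 with TU, which passed, and -0.18 with vehicle, which did not. Cyp3a62 was also lower in obese than in lean TU livers, by 0.70 ± 0.18 (limma adjusted p = 0.0251, and 0.0695 without lean replicate 1). Cyp3a9 fell by 1.27 ± 0.30 with vehicle (limma adjusted p = 0.0301, and 0.0847 without lean replicate 1), with 11.22, 10.51, 11.81 and 11.75 in obese and 13.01, 12.43, 12.35 and 12.56 in lean livers. With TU the Cyp3a9 difference was -0.98 ± 0.31 and the groups overlapped (limma adjusted p = 0.0572). Cyp2c23, an arachidonic acid epoxygenase, and Cyp2c6v1 were higher with vehicle, by 0.81 ± 0.18 and 0.59 ± 0.16 (limma adjusted p = 0.0258 and 0.0475), and the Cyp2c6v1 groups overlapped. Both calls were lost when 1 of several arrays was left out, with a limma adjusted p of up to 0.0751 (without lean replicate 4) and 0.126 (without lean replicate 2). Cyp2j10 was higher with vehicle by 0.23 ± 0.051 (limma adjusted p = 0.0254, and 0.0799 without lean replicate 2). It lay near background, at 6.90 to 7.01 in obese and 6.64 to 6.78 in lean vehicle livers. It was well above background on 3 lean vehicle arrays and on 0 lean TU arrays.

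Several well known P450s did not pass. Cyp2e1, which oxidises ethanol and small solvents, had 13.39, 14.98, 16.01 and 15.48 in obese TU livers and 15.55, 15.80, 15.46 and 15.69 in lean TU livers. Obese replicate 1 was the lowest and obese replicate 3 the highest of all 8, so that the groups overlapped (-0.66 ± 0.50, limma adjusted p = 0.394). With vehicle all obese livers lay below all lean livers (-0.82 ± 0.35, limma adjusted p = 0.156). Cyp1a2, which oxidises caffeine and aromatic amines, differed by 0.50 ± 0.16 with TU and 0.13 ± 0.16 with vehicle, and Cyp1a1, the form induced through Ahr, by 0.02 ± 0.049 and 0.06 ± 0.041. Cyp1a1 lay near background in all groups. It was well above background on 1 obese and 0 lean TU arrays and on 3 obese and 2 lean vehicle arrays, so that its small differences say little. The testosterone hydroxylases Cyp2a1 and Cyp2a2 differed by -0.11 ± 0.13 and -0.13 ± 0.18 with TU and by 0.23 ± 0.32 and 0.56 ± 0.32 with vehicle.

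Probes of 1 gene did not always give the same answer, and probes of near-identical P450s may bind each other's RNA. The brightest probe of Cyp2c7, a P450 higher in female than in male rat liver, gave 1.01 ± 0.47 with TU and 0.95 ± 0.33 with vehicle and did not pass (limma adjusted p = 0.174 and 0.09). Its 3 other probes gave 1.26 to 3.03 with TU and 1.42 to 2.97 with vehicle, and all passed in both colours. For Cyp2b1, the phenobarbital-induced P450, the brightest probe gave -0.16 ± 0.28 and -0.31 ± 0.37, and 1 of 3 other probes passed, at 0.60 with TU and 0.95 with vehicle. Of the 93 genes, 11 had more than 1 probe.

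Cyp17a1, the hydroxylase and lyase of androgen synthesis, is among the genes that only share the first letters, and was higher in obese livers by the largest amount of any of the 93. It had log2 signals of 10.43, 11.04, 10.83 and 10.88 in obese TU livers, against 8.65, 8.56, 8.67 and 8.23 in lean TU livers, and 10.59, 10.58, 10.82 and 11.005 in obese vehicle livers, against 7.98, 8.21, 8.33 and 7.86 in lean vehicle livers. All obese livers lay above all lean livers in both colours. The difference was 2.27 ± 0.15 with TU and 2.65 ± 0.14 with vehicle (6.29-fold), with limma adjusted p = 0.000162 and 0.000119. Cyp27b1, which activates vitamin D, fell by 0.40 ± 0.080 with TU and 0.32 ± 0.072 with vehicle (limma adjusted p = 0.0104 and 0.0242). The vehicle call was lost without any 1 of the lean arrays, with a limma adjusted p of up to 0.0723. Cyp39a1, an oxysterol hydroxylase of bile acid synthesis, was higher with vehicle by 0.57 ± 0.12 (limma adjusted p = 0.0177, and 0.059 without lean replicate 4).

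The flavin-containing monooxygenases were lower or not called. Fmo5 had 9.84, 9.62, 10.40 and 10.16 in obese TU livers, against 11.13, 11.17, 10.73 and 11.07 in lean TU livers, and 9.51, 9.66, 9.79 and 9.55 in obese vehicle livers, against 10.54, 10.26, 10.55 and 10.68 in lean vehicle livers. It fell without overlap in both colours, by 1.02 ± 0.18 and 0.88 ± 0.10 (limma adjusted p = 0.00639 and 0.0023). Fmo1, which oxidises nitrogen and sulfur atoms of drugs, fell by 0.92 ± 0.14 with vehicle (limma adjusted p = 0.00695), while with TU it differed by -0.44 ± 0.16 and the groups overlapped (limma adjusted p = 0.0866).

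Of the 14 aldehyde dehydrogenases, 5 passed in each colour, the same 5 genes with the same direction: 4 higher (Aldh3b1, Aldh6a1, Aldh3a2 and Aldh16a1) and 1 lower (Aldh2). That was 35.7% of them, against 21.8% (TU) and 15.5% (vehicle) of all features. Aldh3b1, which oxidises lipid aldehydes, had 9.66, 9.64, 9.97 and 9.30 in obese TU livers, against 8.11, 7.86, 7.79 and 7.86 in lean TU livers, and 9.31, 9.26, 9.80 and 8.97 in obese vehicle livers, against 7.83, 7.88, 7.87 and 7.96 in lean vehicle livers. The groups stood well apart (1.74 ± 0.14 with TU and 1.45 ± 0.16 with vehicle, limma adjusted p = 0.000388 and 0.0018). Aldh6a1, of valine breakdown in mitochondria, was higher by 0.89 ± 0.15 and 1.04 ± 0.13 (limma adjusted p = 0.00564 and 0.00274). Aldh3a2, the fatty aldehyde dehydrogenase, was higher by 0.62 ± 0.16 and 0.78 ± 0.14 (limma adjusted p = 0.0283 and 0.0107), and the TU call was lost without obese replicate 4 (limma adjusted p = 0.0668). Aldh16a1 was higher by 0.65 ± 0.086 with TU and 0.69 ± 0.17 with vehicle (limma adjusted p = 0.00212 and 0.0369, the second 0.104 without lean replicate 3).

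Aldh2, the mitochondrial enzyme that clears acetaldehyde, had a value on 3 obese arrays. Its signals there were 13.32, 14.25 and 13.33 with TU and 13.99, 14.18 and 13.23 with vehicle, against 15.27, 15.67, 15.55 and 15.39 and 15.48, 15.27, 15.09 and 15.31 on the lean arrays. All obese values lay below all lean values in both colours. Aldh2 fell by 1.84 ± 0.24 with TU and 1.49 ± 0.23 with vehicle (limma adjusted p = 0.00316 and 0.00936). Aldh1a1, which makes retinoic acid from retinal, differed by 0.02 ± 0.56 and 0.31 ± 0.53, with a wide spread among obese livers and no call.

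**Figure D3:**
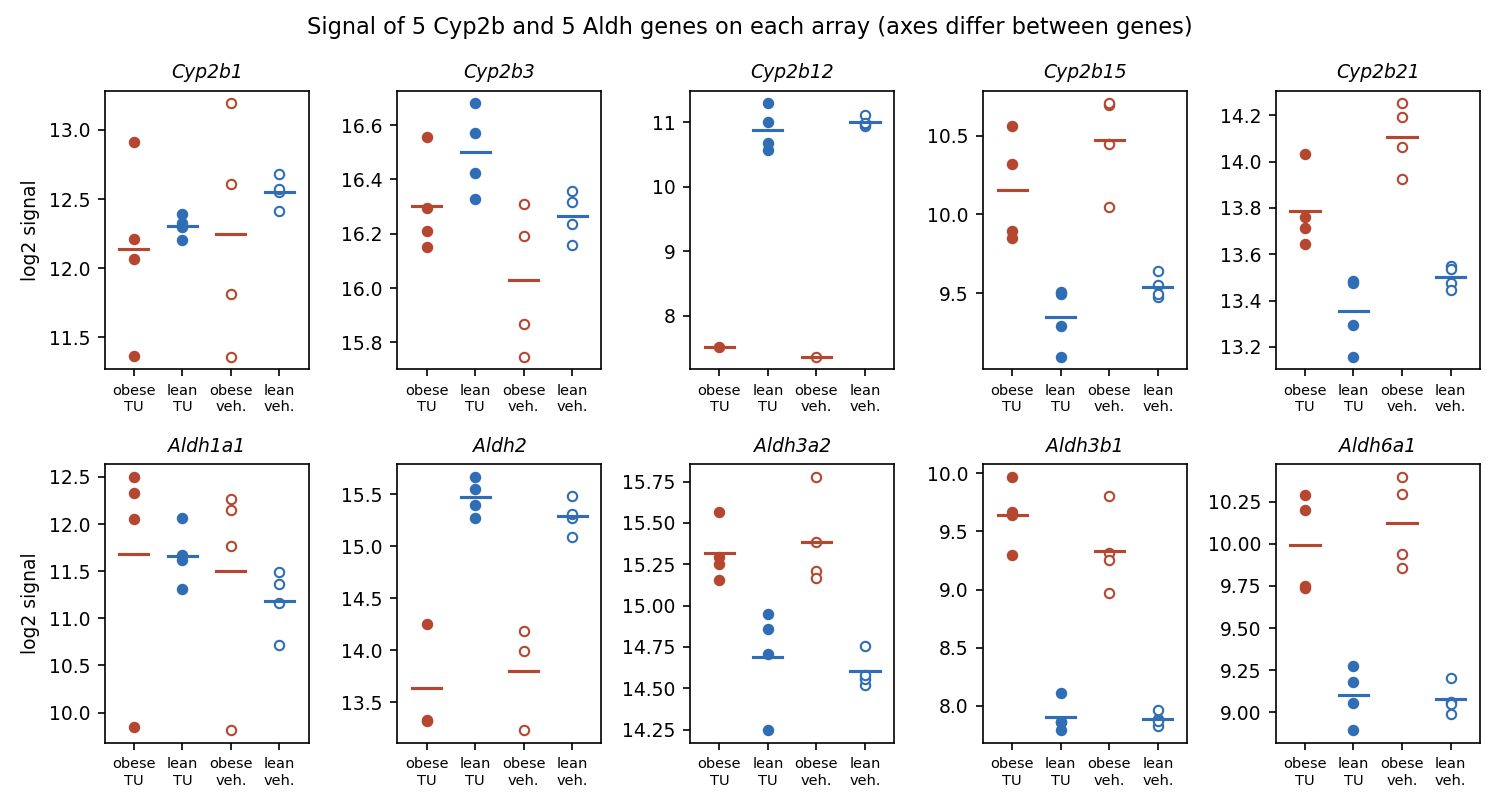
Log2 signal of 5 Cyp2b and 5 Aldh genes (vertical axes, which differ between genes) in obese TU, lean TU, obese vehicle and lean vehicle livers; each point is 1 array and each line the mean. Cyp2b15 and Aldh3b1 points of obese livers lie above those of lean livers in both colours, Aldh2 points lie below, and Cyp2b12 has 1 obese point in each colour.

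Of the 9 UGTs, 3 passed in each colour (1 higher, 2 lower), and without Ugt2b7 2 of 8 with vehicle. These were 33.3% in each colour and 25% without Ugt2b7, against 21.8% (TU) and 15.5% (vehicle) of all features. Ugt2b15 was higher in both colours and Ugt2b1 lower in both, although both lie in the same run of 8 neighbouring genes with Sult1e1 and Sult1b1. Ugt2b1, which joins glucuronic acid to steroids and drugs, had 12.55, 12.75, 12.94 and 12.47 in obese TU livers, against 13.48, 13.37, 13.83 and 13.31 in lean TU livers, and 11.88, 12.06, 12.83 and 12.54 in obese vehicle livers, against 12.88, 13.63, 13.63 and 13.45 in lean vehicle livers. The obese values were lower without overlap in both colours (-0.82 ± 0.14 and -1.07 ± 0.25, limma adjusted p = 0.00614 and 0.0295, the second 0.088 without lean replicate 3). Ugt2b15 was higher by 0.63 ± 0.12 and 0.78 ± 0.18 (limma adjusted p = 0.00967 and 0.0263, the second 0.0802 without lean replicate 3). Ugt2a3 was lower in obese than in lean TU livers by 0.63 ± 0.13 (limma adjusted p = 0.0115). Ugt2b7 was not well above background on any obese vehicle array, so that it was at least 1.17-fold lower there than in lean vehicle livers. It passed the background filter through the lean arrays, so that this too has no test. The bilirubin enzyme Ugt1a1 differed by 0.06 ± 0.16 with TU and 0.18 ± 0.19 with vehicle and did not pass.

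Of the 17 GSTs, 3 passed in each colour, 1 higher and 2 lower with TU and 2 higher and 1 lower with vehicle. That was 17.6% of them, near or below the 21.8% (TU) and 15.5% (vehicle) of all features. Gsto1, of the omega class, had 13.40, 13.30, 13.43 and 13.50 in obese TU livers, against 12.47, 12.63, 12.76 and 12.63 in lean TU livers, and was higher by 0.79 ± 0.075 with TU and 0.97 ± 0.15 with vehicle without overlap (limma adjusted p = 0.000637 and 0.00695). The mu class genes Gstm2 and Gstm3 were lower in obese than in lean TU livers, by 1.20 ± 0.24 and 0.60 ± 0.079 (limma adjusted p = 0.0103 and 0.00213). With vehicle Gstm2 spread over 12.96, 14.24, 12.43 and 11.68 in obese livers, against 13.52, 13.73, 13.66 and 13.53 in lean livers, and did not pass (-0.79 ± 0.48, limma adjusted p = 0.309). Gstt1, of the theta class, was higher with vehicle by 0.69 ± 0.11 (limma adjusted p = 0.00851). The alpha class genes Gsta1, Gsta2 and Gsta3, among the classical drug-induced GSTs, differed by -0.38 ± 0.41, 0.20 ± 0.20 and -0.46 ± 0.33 with TU and by -0.24 ± 0.20, 0.34 ± 0.13 and -0.12 ± 0.23 with vehicle, and did not pass. Gstm1 (-0.17 ± 0.078 and 0.41 ± 0.25) and Gstp1 (-0.28 ± 0.099 and -0.30 ± 0.18) did not pass either.

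Other genes of the pathway were followed by lists of the sensors, the redox partners and cofactor suppliers, other enzymes and transporters. The counts below stand beside a share called among all features of 21.8% with TU and 15.5% with vehicle. Of 8 measured sensors, 2 passed with TU (1 higher, 1 lower) and 1 with vehicle (lower). Nr1i3 (CAR) fell in obese livers by 1.34 ± 0.22 with TU and 0.96 ± 0.16 with vehicle (limma adjusted p = 0.0049 and 0.00841), and Rxra, its partner receptor, was higher with TU by 0.64 ± 0.082 (limma adjusted p = 0.00184). Of 11 redox and cofactor genes, 3 were higher with TU and 2 with vehicle, among them the glutathione synthetase Gss (0.90 ± 0.18 and 1.25 ± 0.32, limma adjusted p = 0.0114 and 0.0377). Of 16 other enzymes, 3 passed with TU, all lower, and 5 with vehicle (2 higher, 3 lower). The carboxylesterase Ces1d fell by 2.26 ± 0.15 with TU and 2.39 ± 0.22 with vehicle (limma adjusted p = 0.000162 and 0.000946). Nat8, which acetylates cysteine conjugates made from glutathione conjugates, fell by 1.44 ± 0.19 with TU and fell by 2.34 ± 0.25 with vehicle (limma adjusted p = 0.00206 and 0.00153). Of 12 transporters, 3 passed with TU (2 higher, 1 lower) and 2 with vehicle, both higher. The organic anion carrier Slc22a7 differed by 0.36 ± 0.15 with TU, which did not pass, and was higher by 0.43 ± 0.090 with vehicle (limma adjusted p = 0.137 and 0.0195).

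Markers of other cell types also differed between obese and lean livers. The summed signal of 7 macrophage markers was 15603 to 16796 in obese TU livers, against 23179 to 23769.8 in lean TU livers, and overlapped with vehicle, at 17727 to 28055 and 22140.2 to 31342. With TU 2 of these 7 were called lower, and 3 of the 7 lay above 0. The summed signal of 5 stellate cell markers was 7419.7 to 15811 in obese TU livers, against 5039 to 5458 in lean TU livers, and 7429 to 10868 against 6037 to 7230.4 with vehicle. The single stellate markers did not all go one way, with 3 called higher and 1 lower with TU, and 1 higher and 1 lower with vehicle. Among all features 21.8% were called with TU and 15.5% with vehicle. The summed signal of 8 hepatocyte markers overlapped in both colours, at 691587 to 1028180 and 943807 to 1195920 with TU and 690104 to 984100 and 707245 to 823819 with vehicle. The sum of 3 erythroid markers was 54377 to 104937 in obese vehicle livers, against 22037 to 40658 in lean vehicle livers, without overlap, and overlapped with TU, at 77350.1 to 114096 and 64624 to 97196. That of 3 endothelial markers was 1386 to 1576 in obese TU livers, against 1728 to 2079.9 in lean TU livers, with 2 of 3 called lower, and overlapped with vehicle, at 1267 to 2267 and 1987 to 2319. That of 2 cholangiocyte markers overlapped in both colours. The part of these cell types in the differences was not tested.

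TU livers were then compared with vehicle livers on the same arrays, within obese and within lean rats. None of the 93 genes passed the test in either genotype. Among all features tested, 3 passed in obese livers (0.0124%) and 49 in lean livers (0.204%, with 0.133% higher and 0.0706% lower). At an unadjusted p under 0.05, 26 of the 93 genes (28%, 16 higher and 10 lower) lay past the limit in obese livers and 17 (18.3%, 15 higher and 2 lower) in lean livers, against 12.6% (6.53% higher and 6.09% lower) and 15.3% (6.57% higher and 8.7% lower) of all features. The median log2 ratio of the 93 genes was -0.0158 in obese and 0.0629 in lean livers, against -0.0058 and -0.0173 over all features. Sult1b1 came nearest to the threshold in obese livers (limma adjusted p = 0.209). Without obese replicate 2, 7 genes passed in lean livers (among them Ugt2a3, Fmo5, Aldh1a1, Cyp2j4 and Cyp17a1 as higher and Aldh4a1 as lower), since both genotypes share 1 estimate of the spread. Between TU and vehicle in lean livers, the erythroid and hepatocyte marker sums given above lay higher with TU and the stellate cell sum lower, without overlap. In obese livers the macrophage sum lay lower with TU without overlap. Their part in the TU ratios was not tested.

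**Figure D4:**
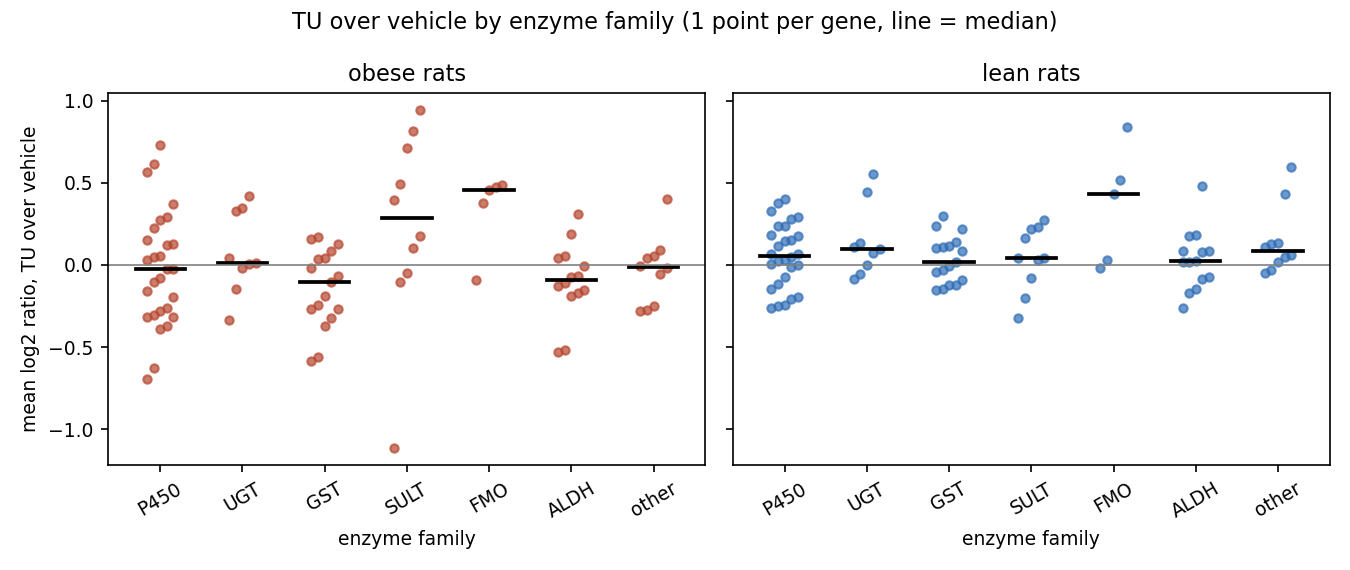
Mean log2 ratio of TU over vehicle (vertical axis) by enzyme family, in obese livers on the left and lean livers on the right; each point is 1 gene and each line the median. No point passed the test; the FMO medians were 0.45 in obese and 0.43 in lean livers.

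By loess, the FMO genes had the highest median of the families in both genotypes. Their median log2 ratio was 0.45 in obese and 0.43 in lean livers, with 4 of 5 genes above 0 in each; when each array was centred on its median instead of by loess, the lean median was -0.011 with 2 of 5 above 0 and the obese median 0.52, below that of the SULTs (0.69). That centring put the median of all features at -0.21 in lean and 0.02 in obese livers. At an unadjusted p under 0.05, 4 of 5 lay past the limit in obese and 3 of 5 in lean livers, all above 0.

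Fmo1 was at 0.38, 0.39, 0.85 and 0.21 on the obese arrays and -0.05, 0.04, -0.26 and 0.18 on the lean arrays, so that all obese arrays lay above all lean arrays. Its ratios were 0.45 ± 0.10 in obese and -0.02 ± 0.10 in lean livers. Fmo2 was above 0 on all 8 arrays (0.47 ± 0.13 in obese and 0.43 ± 0.13 in lean livers) and passed in both genotypes with the scanner software's processed signals, at 1.52 and 1.05. Fmo5 had 0.38 ± 0.13 and 0.52 ± 0.13.

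**Figure D5:**
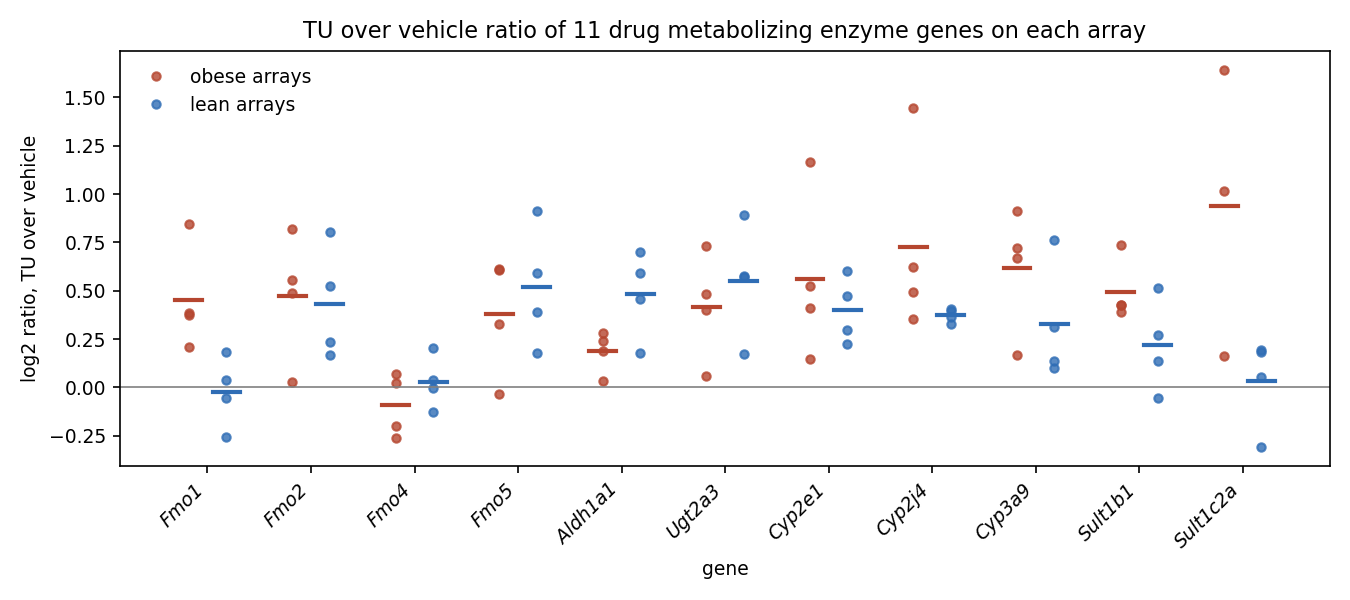
Log2 ratio of TU over vehicle (vertical axis) of 11 genes on the obese and lean arrays; each point is 1 array, each short line the mean, and 0 means no difference. Cyp2j4, Cyp2e1 and Ugt2a3 lie above 0 on all 8 arrays.

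On all 8 arrays 9 genes lay above 0 (among them Aldh1a1, Cyp2b3, Cyp2e1, Cyp2j4, Cyp3a9, Fmo2, Ugt2a3 and Ugt2b37) and 2 below 0 (Cyp2b15 and Sult4a1), against 3.53% and 3.65% of all features. Aldh1a1 had 0.03, 0.28, 0.24 and 0.19 in obese and 0.59, 0.46, 0.70 and 0.18 in lean livers (0.19 ± 0.082 and 0.48 ± 0.082, limma adjusted p = 0.398 and 0.0692). Cyp2j4, an epoxygenase of arachidonic acid, had 0.49, 1.45, 0.62 and 0.35 and 0.33, 0.40, 0.41 and 0.37, highest on obese replicate 2 (0.73 ± 0.15 and 0.37 ± 0.15, limma adjusted p = 0.218 and 0.285). Ugt2a3 had 0.48, 0.73, 0.06 and 0.40 and 0.58, 0.89, 0.17 and 0.57 (0.42 ± 0.12 and 0.55 ± 0.12, limma adjusted p = 0.35 and 0.104). With median centring the lean values of Aldh1a1, Cyp2e1, Cyp2j4, Cyp3a9, Cyp2b3 and Ugt2b37 were below 0, at -0.20 to -0.03, while Ugt2a3 and Fmo2 stayed above it, and 10 genes passed as lower in lean livers, where the median of the 93 was -0.31.

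Among the sulfotransferases, the median ratio in obese livers was 0.29 with 7 of 10 above 0, and 5 lay past an unadjusted p of 0.05 (4 higher, 1 lower). Median centring gave 0.69 for it, scaling the arrays to 1 spread gave 0.80, and leaving out obese replicate 2 gave 0.19. Sult1b1 had 0.43, 0.74, 0.39 and 0.43 on the obese arrays, all above 0, and -0.05, 0.27, 0.51 and 0.14 on the lean arrays, which overlapped with them (0.49 ± 0.092 and 0.22 ± 0.092, limma adjusted p = 0.209 and 0.311). Sult2a6, called as higher in obese than in lean livers, had 0.81, 0.92, 1.24 and 0.27 with TU over vehicle in obese livers and 1.18, 0.01, -0.10 and 0.01 in lean livers, where lean replicate 1 stood apart (0.81 ± 0.22 in obese, limma adjusted p = 0.32). Sult1c2a had 1.02, 1.64 and 0.16 on 3 obese arrays (0.94 ± 0.24, limma adjusted p = 0.32) and 0.19, 0.18, -0.31 and 0.06 on the lean arrays. In lean livers the SULT median was 0.044, and -0.31 with median centring.

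Among the P450s and GSTs, ratios in obese livers lay on both sides of 0. Cyp3a9 had 0.17, 0.91, 0.67 and 0.72 in obese and 0.14, 0.76, 0.10 and 0.31 in lean livers, all above 0 (0.62 ± 0.13 and 0.33 ± 0.13, limma adjusted p = 0.244 and 0.295). Cyp2e1 had 0.15, 0.41, 1.17 and 0.52 and 0.30, 0.60, 0.22 and 0.47 (0.56 ± 0.14 and 0.40 ± 0.14, limma adjusted p = 0.307 and 0.24). Of the 93 genes, 16 lay above 0 on all 4 obese arrays, against 13.1% of all features, and 15 lay below 0, against 10.2%. The 15 included Sult4a1, and 10 of them were P450s (28 of the 93) or GSTs (17 of the 93). Among these were Cyp2c22 (-0.69 ± 0.18), the testosterone hydroxylase Cyp2a2 (-0.63 ± 0.19) and Gstm1 (-0.59 ± 0.16), with limma adjusted p = 0.32, 0.35 and 0.337. Obese replicate 2 was the lowest of the 4 for Cyp2a2, at -1.51, and for Gstm1, at -1.28. In obese livers 4 of 17 GSTs (23.5%) lay past an unadjusted p of 0.05, all below 0, against 12.6% of all features. This count was 1 without obese replicate 1, 1 without obese replicate 2 and 0 with median centring, where 11 of 17 lay above 0. In lean livers 2 of 17 (11.8%) did, both above 0, against 15.3% of all features.

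The difference between the TU response of obese and lean livers was tested by itself. None of the 93 genes passed, against 1 of 24074 features (0.00415%), and 12 (12.9%, 4 higher and 8 lower in obese) lay past an unadjusted p of 0.05, against 7.93% of all features (5.3% higher and 2.64% lower). The smallest p-values were those of Gstm3 (-0.34), Sult1c2a (0.91), Fmo1 (0.48 ± 0.15) and Aldh3b1 (0.29), all with a limma adjusted p of 0.614. Gstm3 had -0.22, -0.15, 0.00 and -0.04 in obese and 0.36, 0.35, -0.02 and 0.25 in lean livers, which overlapped.

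None of the pathway genes on the lists of sensors (8 measured), redox partners (11), other enzymes (16) and transporters (12) passed in obese livers, in lean livers or in the difference. Beside the ratios of lean livers stands the summed signal of 3 erythroid markers, at 64624 to 97196 with TU against 22037 to 40658 with vehicle, and of 8 hepatocyte markers, at 943807 to 1195920 against 707245 to 823819. The hemoglobin gene Hbb-b1 was higher with TU in lean livers by 1.39 ± 0.20 and the hepatocyte marker Ambp by 0.76 ± 0.099 (limma adjusted p = 0.0405 and 0.0323). In obese livers the erythroid sums overlapped, at 77350.1 to 114096 with TU and 54377 to 104937 with vehicle. Their part in the ratios was not tested.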

How the data were processed

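Liver RNA of obese and lean male ZDF rats was measured on 8 two-colour Agilent arrays, 4 per genotype, with TU RNA in Cy5 and vehicle RNA in Cy3, per the labels. The deposited scanner output (Agilent Feature Extraction 10.7.3.1, per the file headers) gives each spot's foreground and background intensity, of which the medians over pixels were used. It also gives log10 ratios, Cy5 over Cy3, per the file headers. The authors' matrix of the series gives 1 log2 ratio a probe, and how it was normalized is not stated in the labels. Set against the scanner's log10 ratios their slope was 3.33 to 3.38, and they correlated with the log ratios of the processed signals with r of 0.998 to 1, so that they run TU over vehicle. Their column medians were 0.0855, 0.0666, 0.0745 and 0.0662 for the lean and 0.0792, 0.139, 0.0632 and 0.0459 for the obese arrays, and they correlated with the ratios computed here with r of 0.237 to 0.703. The authors' centring is not known. Unmapped value columns numbered 0.

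From these files, median intensities were background-corrected by normexp with an offset of 50 and normalized by loess within arrays, and by Aquantile between arrays for single colours. Control and non-uniform spots were left out. Probes were kept if well above background in either colour on at least 4 of 8 arrays, and the brightest probe stood for a gene. Genes that passed this filter through 1 genotype alone (Sult4a1, Ugt2b7), or had a value on 1 array of a genotype (Cyp2b12), are described with no test. Probes were named through RefSeq accessions (16815 probes through the newer and 195 through the older design, with 24002 unnamed). limma 3.58.1 in R 4.3.3 was fitted over all features with adjustment by Benjamini-Hochberg, at a threshold of 0.05. The comparisons were TU over vehicle in each genotype, the difference of the 2, and obese over lean within each colour. On simulated data (24048 features, 200 changed) the lean TU comparison recovered 98% of changes of 1 log2 unit, and obese over lean 80% with TU and 73% with vehicle. False calls numbered 18, 10 and 6. The simulated noise was normal and equal on all arrays, without the wide spread of obese replicate 2 or the low spots of obese replicate 1. A change of 1 log2 unit is also above every mean lean TU ratio of the 93 genes, so that recovery at their sizes was not measured.

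The genes and lists were chosen with earlier results of these data known. Named genes are, per comparison, those past the threshold (the 25 with the smallest p where there were more), the 2 of each family with the smallest p, and a fixed list of 37 well known members, 32 of them measured. Sult1c2, Sult4a1, Cyp26b1, Aldh16a1 and Gstm5 fall outside this rule in 1 colour and, where given, were chosen after their values were seen. The results of some genes are not reported here by name. The replicate numbers showed no clear pairing of the arrays: the deviations of same-numbered obese and lean arrays correlated with r of 0.0547, -0.101, 0.154 and -0.00662. The best partner was the array of the same number for replicates 1 and 3, and was not for replicates 2 and 4. The number of arrays, 4 a genotype, limits the precision. Alternatives in background correction, starting signals, filters, probes, variance model, array weights, replicate block, normalization and arrays left out were run.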

Additional observations from a re-analysis of the deposited data

Results flagged for a closer look

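In the groups of 4 arrays, 23 values of named genes lay apart from the other 3 by Dixon's criterion. Chance sets apart about 1 in 20 groups, and many groups were searched, so that part of the 23 would come by chance. Only genes named by the rule for a comparison were searched in it, which left out the lean TU ratios of Sult2a6. On obese replicate 1, TU over vehicle ratios of Gsta1 (-0.68, others 0.32 to 0.37) and Gsta3 (-0.76, others -0.09 to -0.05) stood apart. On obese replicate 2 the same held for Gstp1 (0.63, others -0.01 to 0.04), Sult1b1 (0.74, others 0.39 to 0.43) and Ugt1a1 (-0.43, others 0.11 to 0.14). On lean replicate 3 it held for Cyp2c13 (0.67, others -0.05 to 0.00).

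Of the log2 signals with TU, obese replicate 1 was the lowest, apart from the other 3, for Aldh1a1 (9.85, others 12.05 to 12.50), Cyp1a1 (6.63, others 6.71 to 6.72), Cyp2a2 (10.72, others 11.43 to 11.56) and Cyp2c7 (15.43, others 17.12 to 17.22). Lean replicate 4 stood apart for Gstt1 (11.61, others 11.28 to 11.33) and lean replicate 3 for Sult2a1 (13.32, others 12.87 to 12.90).

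Of the log2 signals with vehicle, obese replicate 2 stood apart for Cyp2d2 (14.71, others 13.30 to 13.42) and Sult1a1 (14.58, others 15.01 to 15.08). Obese replicate 1 did for Gsta4 (11.22, others 12.27 to 12.49) and Ugt2b15 (13.76, others 14.41 to 14.47), obese replicate 3 for Gstt1 (11.59, others 12.05 to 12.10), and obese replicate 4 for Cyp2c6v1 (14.90, others 15.52 to 15.56) and Sult1e1 (12.57, others 12.14 to 12.22). Lean replicate 1 did for Cyp2c23 (13.35, others 13.25 to 13.26) and Gsta4 (12.45, others 12.18 to 12.21), and lean replicate 2 for Cyp1a1 (6.61, others 6.68 to 6.69) and Gsta2 (14.60, others 14.67 to 14.69).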

How the results depend on the processing

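The main limits are 4 arrays a genotype, dyes that were never exchanged, genotype lying with slide and scan, and obese replicate 2, whose log2 ratios had an SD of 0.462 over features, against 0.107 to 0.254 on the other 7 arrays. Of TU over vehicle in lean livers, 49 features and 0 of the genes described here passed. These counts were 352 and 5 with no background correction, 258 (137 higher, 121 lower, against 32 and 17) and 2 with the scanner's processed signals, 260 and 2 with the authors' log ratios, 756 and 5 with array weights, 281 and 3 with lean arrays alone, 5732 (291 higher, 5441 lower) and 10 with median centring, and 0 features with trend and robust variance or with ratios scaled between arrays. With probes well above background on all 8 arrays 1 gene passed. In obese livers 3 features and 0 genes passed. The counts were 82 and 3 with no background correction, 208 (154 higher, 54 lower) and 1 with processed signals, 196 and 1 with the authors' log ratios, 168 and 6 with array weights, and 0 features with the mean of probes, trend and robust variance, median centring, scaled ratios or obese arrays alone. Of the difference between genotypes 1 feature passed, 2 with processed signals or the authors' log ratios, 14 with array weights, and 0 with no background correction, the mean of probes, trend and robust variance, median centring or scaled ratios, and none of the genes under any of these.

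Of obese over lean with TU, 5249 features passed, 7914 with processed signals, 8772 with array weights, and 0 without a step between arrays. With vehicle 3740 passed, 5847 with processed signals, 6157 with array weights, and 1 without a step between arrays. Without that step 0 of the genes passed in either colour, and the median of all features was shifted by 0.50; Cyp27b1 then lay at 0.10 with TU and 0.18 with vehicle, Cyp2b21 at -0.055 with TU and Ugt2b7 at 0.41 with vehicle, each against the sign given above. The cause was not tested.

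With 1 array left out, features passing ranged over 0 to 2 (obese TU), 1 to 1110 (lean TU), 0 to 3 (difference), 3438 to 7914 (obese over lean, TU) and 1691 to 5167 (vehicle), and genes passing over 0 to 0, 0 to 7, 0 to 0, 23 to 32 and 16 to 33. The high lean TU counts, 1110 and 7, came without obese replicate 2. Of the called genes, 22 of 29 with TU and 16 of 30 with vehicle passed whichever array was left out, Cyp2b12 with its 1 obese array among them. The replicate numbers showed no clear pairing of the arrays. With the replicate block 22 features passed in lean and 0 in obese TU livers and 0 in the difference (1, 0 and 0 genes), 4967 of obese over lean with TU (29 genes) and 1768 with vehicle (15 genes). The medians of the genes in TU over vehicle changed sign with median centring, to 0.15 in obese and -0.31 in lean livers. The obese median, -0.016, also changed sign with array weights (0.015), scaled ratios (0.030), without obese replicate 1 (0.0095) and without obese replicate 2 (0.012).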
